A study of Drosophila melanogaster with 3 samples.

Results

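The regions described here are 474 stretches of 76 to 500 nt that lie between neighbouring peaks of 1 strand and whose borders, to the base, are the same in at least 2 of 3 lists of RNA fragments recovered with the exon junction complex (EJC). They were chosen from the peak positions themselves, among 85125 distinct gaps of any length and 31196 distinct gaps of 76 to 500 nt in the 3 lists. Gaps with identical borders numbered 1998 over all lengths, so those of 76 to 500 nt are the smaller part of them, beside 1232 of 50 to 75 nt and 155 longer than 500 and up to 2000 nt.

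The EJC is a protein complex that the spliceosome leaves on the mRNA at a short, fixed distance upstream of the place where exons were joined. It is built around eIF4AIII, an RNA helicase that clamps the RNA, the heterodimer of Y14 and Mago, and Btz (Barentsz), and it is removed when ribosomes first translate the message. Fragments that it protects from nuclease are spliced RNA, so on the genome a fragment that crosses a junction falls into pieces at both ends of the intron. Many Drosophila introns are very short, with a long tail of larger ones, and the lengths described here begin on the upper slope of that short class.

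The cells were S2 cells, a long-established cell line of Drosophila melanogaster that resembles blood cells. Each group was 1 library. The first carried tagged eIF4AIII and was captured through the tag and then through endogenous Y14 (eIF4AIII/Y14). The second carried tagged Btz and was captured second through endogenous eIF4AIII (Btz/eIF4AIII), and the third carried tagged Y14 and was also captured second through endogenous eIF4AIII (Y14/eIF4AIII). In all 3, expression of the tagged protein was induced with 10 to 50 µM copper sulphate, the cells grew for 72 h at 24°C and were held in 100 µg/ml cycloheximide, which stops translation, for 2 h. Complexes were selected on oligo(dT) and trimmed for 15 min with micrococcal nuclease, with 0.3 units for Y14/eIF4AIII and 0.5 units for each of the others. The tagged protein was made beside the cells' own copy, and no control purification was analysed here. The lists hold positions and no gene names, so the labelled cell type could not be set against marker genes.

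The eIF4AIII/Y14 list held 34945 peaks with a median width of 31 nt, the Btz/eIF4AIII list 36393 of 53 nt and the Y14/eIF4AIII list 16094 of 48 nt. The deposited score of a peak is called depth below, in reads per base, and its median over the peaks of these lists was 52, 95.3 and 34. Depth is not scaled between libraries, whose read numbers the sources used here do not give. With 1 library per purification no difference between purifications was tested and no p-value is given. The intervals beside shares are 95% binomial intervals (exact, Clopper-Pearson) that take gaps as independent and cover counting error only, and since the labels name no molecular identifiers, reads are not taken as independent molecules. Coordinates are 1-based and, by the sequence names, of release 5 of the fly genome. The annotation at hand is that of release 6, so gaps were not placed on genes, exons or introns and no sequence is shown.

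Of the 474 gaps, Btz/eIF4AIII held 456, eIF4AIII/Y14 374 and Y14/eIF4AIII 174. eIF4AIII/Y14 and Btz/eIF4AIII alone shared 300 of them (63.3%), Btz/eIF4AIII and Y14/eIF4AIII alone 100 (21.1%), eIF4AIII/Y14 and Y14/eIF4AIII alone 18 (3.80%), and 56 (11.8%) were in all 3 lists. The pair of purifications that goes through eIF4AIII and Y14 in reversed order thus shared 74 gaps in all, against 156 for Btz/eIF4AIII with Y14/eIF4AIII and 356 for eIF4AIII/Y14 with Btz/eIF4AIII. As a share of each list, these 74 gaps made up 0.536% of eIF4AIII/Y14 and 1.72% of Y14/eIF4AIII, counting all gaps of 76 to 500 nt. The 156 made up 1.15% of Btz/eIF4AIII and 3.63% of Y14/eIF4AIII, and the 356 made up 2.58% of eIF4AIII/Y14 and 2.61% of Btz/eIF4AIII. Any sharing at all took in 2.71% of the 13812 eIF4AIII/Y14 gaps of this length, 3.35% of the 13618 Btz/eIF4AIII gaps and 4.05% of the 4296 Y14/eIF4AIII gaps. These counts are fixed by the way the gaps were chosen and are given as a description.

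The gaps had a median length of 135 nt, with quartiles at 92.25 and 251.5 nt, a shortest length of 76 nt and a longest of 499 nt. Lengths of 76 to 99 nt made up 142 of them (29.96%), 100 to 149 nt 112 (23.6%), 150 to 199 nt 63 (13.3%), 200 to 299 nt 67 (14.1%), 300 to 399 nt 57 (12.0%) and 400 to 500 nt 33 (6.96%). Counted per nt of length, the class of 76 to 99 nt held 5.92 gaps and that of 400 to 500 nt 0.327. The lower limit cuts through this slope, with 18 shared gaps of 74 nt, 13 of 75 nt, 15 of 76 nt and 13 of 77 nt. The upper limit lies in a sparse stretch, with 2 shared gaps of 499 nt, 0 of 500 nt and 0 of each of the next 2 lengths. The median of 135 nt stood against 169 nt (quartiles 104 and 291 nt) for the 15879 annotated introns of 76 to 500 nt. The class of 76 to 99 nt took in 29.96% of the shared gaps, against 22.7% of these introns. Gaps in all 3 lists had a median length of 149.5 nt, those of eIF4AIII/Y14 and Btz/eIF4AIII alone 138.5 nt, those of Btz/eIF4AIII and Y14/eIF4AIII alone 119.5 nt and the 18 of eIF4AIII/Y14 and Y14/eIF4AIII alone 175.5 nt.

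The share of gaps with common borders was highest in the shortest class in each list and changed little above 200 nt. Of the gaps of 76 to 99 nt, eIF4AIII/Y14 shared 6.34% (5.22 to 7.63), Btz/eIF4AIII shared 7.09% (5.99 to 8.32) and Y14/eIF4AIII shared 12.3% (9.56 to 15.5). Of those of 200 to 299 nt, 1.77%, 2.13% and 1.93% were shared in the same order of lists, and of those of 400 to 500 nt 1.66%, 2.11% and 2.04%. The neighbouring class of 50 to 75 nt stood far above these values, at 29.4%, 18.9% and 34.8% in that order. From 200 nt upward the intervals of all classes overlapped within each list, up to the class longer than 500 and up to 2000 nt at 1.83%, 2.47% and 1.44%.

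**Figure D1:**
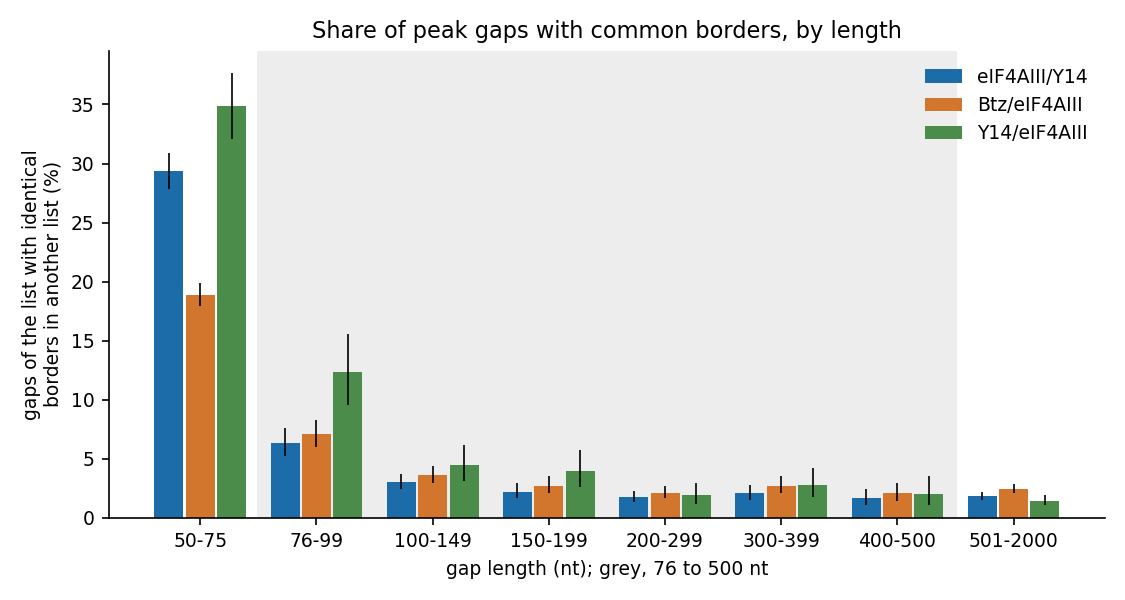
Percent of the gaps of each list whose borders recur to the base in another list (vertical axis), by length class in nt (horizontal axis), with exact 95% intervals as bars and the classes of 76 to 500 nt on grey. The shares drop from 6.34% to 12.3% at 76 to 99 nt to 1.66% to 2.11% at 400 to 500 nt, and the class of 50 to 75 nt stands above all of them.

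On the chromosomes, 109 shared gaps lay on 2R, 106 on 3R, 90 on X, 84 on 2L, 72 on 3L, 12 on chromosome 4 and 1 on the unplaced sequence U. None lay on the heterochromatic sequences 2LHet, 2RHet, 3LHet, 3RHet and XHet or on Uextra, which together held few gaps of this length at all (from 5 on 2LHet to 44 on 3LHet), and none on YHet, which held no gap of this length. Among all distinct gaps of 76 to 500 nt, 2.02% were shared on X and 1.19% on 3L, with 1.58% on 2L, 1.57% on 2R and 1.38% on 3R between them. X held 18.99% of the shared gaps (95% interval 15.6 to 22.8), against 14.3% of all gaps of this length and 18.8% of annotated introns of this length. For 3L the same values were 15.2% (12.1 to 18.7), 19.5% and 19.3%. Chromosome 4, a small and largely heterochromatic chromosome that is nevertheless well transcribed, had 12 shared gaps, or 2.53% (1.31 to 4.38), against 1.62% of all gaps and 1.32% of introns. Of these 12, 10 lay on the minus strand and 2 on the plus strand. The strands of all gaps of this length on chromosome 4 are not given, and 3 of the 12 lay in 1 window of 10 kb. No skew of the shared gaps is therefore read from these counts. Over all chromosomes 264 of the 474 shared gaps were on the minus strand (55.7%, 51.1 to 60.2), against 52.6% of all gaps of this length.

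The shared gaps were also counted in windows along the chromosomes. They fell into 414 windows of 10 kb, of which 358 held 1 gap, 52 held 2 and 4 held 3. The median distance to the nearest other shared gap of 76 to 500 nt on the same strand was 91773 nt, and 52 gaps had one within 1000 nt. Of the 473 gaps with such a neighbour, 126 had it within 10 kb. No background of all gaps of this length is given for these counts. Neither scatter nor clustering is therefore read from them. The windows with 3 gaps began at 2L 5030001, 2R 4980001, 2R 13410001 and chromosome 4 670001.

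The next question was whether a purification that had no part in choosing a gap left its own fragments beside it. At a distance of 22 nt, eIF4AIII/Y14 peaks covered the upstream base of most gaps shared by the other lists and the downstream base of fewer. The base 22 nt upstream of the 156 gaps common to Btz/eIF4AIII and Y14/eIF4AIII lay in an eIF4AIII/Y14 peak at 132 of them (84.6%, 95% interval 77.98 to 89.9), and the base 22 nt downstream at 45 (28.8%, 21.9 to 36.6). Over all gaps of 76 to 500 nt of those lists the same bases were covered at 25.9% and 23.7%. Only the upstream base was covered at 93 gaps, only the downstream base at 6, both at 39 and neither at 18. At this distance the interval of the downstream share held the value of all gaps of this length, and that of the upstream share lay above it. Closer to the gap or over a wider stretch, the downstream share over all 156 gaps stood above its background too. However, eIF4AIII/Y14 itself held 56 of the 156 gaps, and there the bases next to the gap lay in its peaks by definition. Its upstream peak was 22 nt or wider at 54 of them and its downstream peak at 25. Those gaps are thus among the 132 and the 45 given above. These 56 are counted in the values that follow, which therefore show no downstream excess at gaps that eIF4AIII/Y14 did not hold. The base next to the gap downstream was covered at 74 gaps (47.4%, 39.4 to 55.6), against 19.2% of gaps of 1 other list only. A peak lay within 50 nt upstream at 135 gaps (86.5%, 80.2 to 91.5) and within 50 nt downstream at 95 (60.9%, 52.8 to 68.6), against 36.1% and 37.0% of gaps of 1 other list only.

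Btz/eIF4AIII peaks stood on both sides, more often upstream, but Btz/eIF4AIII itself held most of these gaps (56 of 74), with peaks at both borders by definition. Of the 74 gaps common to eIF4AIII/Y14 and Y14/eIF4AIII, 64 had the upstream base covered (86.5%, 76.6 to 93.3) and 51 the downstream base (68.9%, 57.1 to 79.2), against 37.1% and 41.3% over all gaps of this length. Both bases were covered at 49, only the upstream base at 15, only the downstream base at 2 and neither at 8. Y14/eIF4AIII, the shortest list, covered fewer. Of the 356 gaps common to eIF4AIII/Y14 and Btz/eIF4AIII, 105 had the upstream base covered (29.5%, 24.8 to 34.5) and 68 the downstream base (19.1%, 15.2 to 23.6), against 13.0% and 13.3% over all gaps of this length. Only the upstream base was covered at 66, only the downstream base at 29, both at 39 and neither at 222. In all 3 lists the upstream base was covered at more gaps than the downstream base. Both shares were above those of all gaps in Btz/eIF4AIII and Y14/eIF4AIII, with the 56 gaps of all 3 lists counted. At 48 of these 56 the downstream Btz/eIF4AIII peak was 22 nt or wider and so covered the downstream base. The downstream Y14/eIF4AIII peak did so at 31 of the 56. Upstream, the peak was 22 nt or wider and so covered the base at 54 of the 56 in Btz/eIF4AIII and at 45 in Y14/eIF4AIII. No downstream excess is claimed for gaps that the left-out list did not hold. For Btz/eIF4AIII and Y14/eIF4AIII no upstream excess is claimed there either.

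Position within the flank differed between the lists. Upstream, eIF4AIII/Y14 coverage was highest at 20 to 22 nt from the gap (84.6%) and fell to 49.4% at the base next to it, to 44.2% at 50 nt and to 15.4% at 100 nt. Downstream it was highest at the base next to the gap, at 47.4%, and stayed above 50% of its overall maximum for 5 nt. Btz/eIF4AIII coverage was highest 7 to 15 nt upstream, at 89.2%, and was still 64.9% upstream and 52.7% downstream at 50 nt. At the bases next to the gap it was 79.7% on both sides. That is 59 of 74 gaps on each side, 56 of them held by Btz/eIF4AIII itself. Y14/eIF4AIII coverage peaked between 13 and 17 nt upstream at 30.3%, with 28.7% next to the gap upstream and 25.0% downstream. The bases next to the gap were covered at 77 gaps upstream and 74 downstream for eIF4AIII/Y14. For Y14/eIF4AIII the counts were 102 and 89. Each of these counts includes the 56 gaps that the list held itself. The downstream maxima at the border are therefore not read as a pattern of gaps that the list did not hold. In gaps of 1 other list only, the curves were low and close to even on both sides, with highest values for eIF4AIII/Y14 of 25.5% upstream and 23.7% downstream. Btz/eIF4AIII reached 38.96% and 41.2% there, Y14/eIF4AIII 13.0% and 13.2%.

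**Figure D2:**
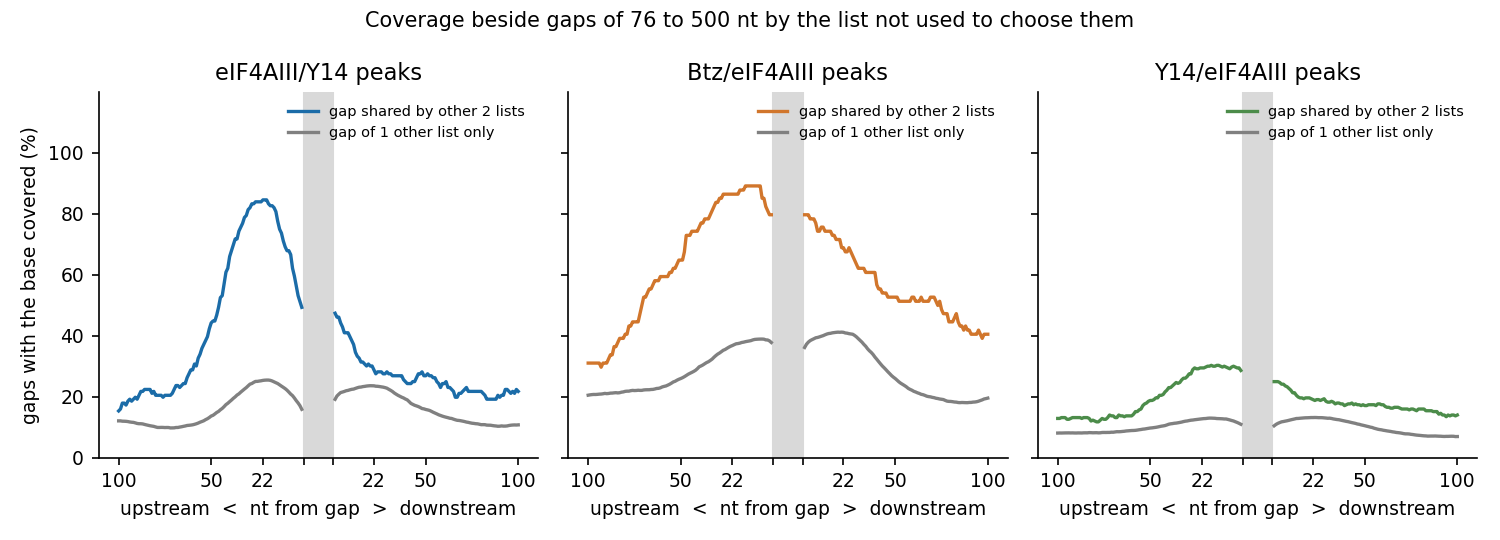
Percent of gaps (vertical axis) with each base covered by a peak of the list named above the panel, by distance in nt from the gap upstream and downstream (horizontal axis); coloured, gaps of 76 to 500 nt shared by the 2 other lists; grey, gaps of this length in 1 other list only; the grey column is the gap. The eIF4AIII/Y14 curve reaches 84.6% upstream and 47.4% downstream, and the Btz/eIF4AIII curve is high on both sides. Each coloured curve includes the 56 gaps that the named list holds itself.

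Coverage was similar in short and long gaps. For eIF4AIII/Y14 the upstream base was covered at 49 of 57 gaps of 76 to 99 nt (85.96%), 43 of 51 of 100 to 199 nt (84.3%) and 40 of 48 of 200 to 500 nt (83.3%), and the downstream base at 26.3%, 31.4% and 29.2%. For Y14/eIF4AIII the upstream shares were 30.7%, 30.1% and 27.9% and the downstream shares 22.8%, 16.5% and 18.9%. For Btz/eIF4AIII, with 24, 27 and 23 gaps per class, they were 91.7%, 77.8% and 91.3% upstream and 66.7%, 62.96% and 78.3% downstream. Within each list the intervals of the classes overlapped. On the plus strand 68 of 72 gaps had the upstream base in an eIF4AIII/Y14 peak (94.4%, 86.4 to 98.5) and on the minus strand 64 of 84 (76.2%, 65.7 to 84.8), and these intervals did not overlap. The downstream shares were 29.2% on plus and 28.6% on minus. The part of strand in the upstream share was not tested. In the other lists the strands were closer, with upstream shares for Btz/eIF4AIII of 88.6% on plus and 84.6% on minus, while Y14/eIF4AIII had 32.5% and 26.9%. Beside the shared gaps of 50 to 75 nt, eIF4AIII/Y14 covered the upstream base at 79.5% (74.9 to 83.6) and the downstream base at 23.9% (19.5 to 28.7), Btz/eIF4AIII at 81.7% and 56.3%, and Y14/eIF4AIII at 28.1% and 13.97%. Beside those longer than 500 and up to 2000 nt the upstream shares were 70.7% of 41 gaps, 76.5% of 17 and 20.2% of 119. All of these intervals overlapped those of the gaps of 76 to 500 nt.

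Coverage was also set beside the depth of the flanks in the lists that chose a gap. Gaps were ranked by their least deep flank in the 2 choosing lists, taken relative to each list's median, and divided at the median. Y14/eIF4AIII covered the upstream base at 61 of 178 gaps in the deeper part (34.3%, 27.3 to 41.7) and 44 of 178 in the other (24.7%, 18.6 to 31.7). For eIF4AIII/Y14 the counts were 68 of 78 and 64 of 78, and for Btz/eIF4AIII 31 of 37 and 33 of 37. The intervals overlapped in each list.

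Peak edges of the left-out list at the very border came mostly from the 56 gaps that it held itself, where both borders match by definition. At the gaps it did not hold, eIF4AIII/Y14 matched 16 upstream and 9 downstream borders of 100. Btz/eIF4AIII matched 3 and 1 of 18 there, and Y14/eIF4AIII 22 and 16 of 300. No background share is given for these matches. The counts that follow are over all gaps, the 56 included. eIF4AIII/Y14 had a peak edge at the upstream border of 72 of the 156 gaps (46.2%) and at the downstream border of 65 (41.7%). At 56 gaps both borders stood between neighbouring peaks, which are the gaps found in all 3 lists. At 1 more both borders were matched with another peak in between, at 15 only the upstream border, at 8 only the downstream border and at 76 neither. Btz/eIF4AIII matched both borders at 56 of 74 gaps (75.7%, 64.3 to 84.9), the upstream border alone at 3, the downstream border alone at 1 and neither at 14. Y14/eIF4AIII matched both at 56 of 356 (15.7%, 12.1 to 19.9), the upstream border alone at 22, the downstream alone at 16 and neither at 262.

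Where eIF4AIII/Y14 did not hold the gap itself, its peaks often stopped just short of, or just past, the upstream border. Of these 100 gaps, the nearest peak edge facing the gap lay at the upstream border exactly in 16, 1 to 5 nt from it in 22, 6 to 20 nt from it in 39, 21 to 100 nt in 4 and farther in 19. At the downstream border the same counts were 9, 5, 6, 29 and 51. For the 300 gaps that Y14/eIF4AIII did not hold, the nearest edge was more than 100 nt away at 206 upstream borders and 222 downstream borders. The 18 gaps that Btz/eIF4AIII did not hold had 10 upstream edges within 20 nt of the border, the exact ones included, and 3 downstream edges.

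Inside the gaps, peaks of the list left out were found at some gaps, and seldom at the middle. At least 1 base of the gap was covered by eIF4AIII/Y14 at 19 of 156 gaps (12.2%, 7.49 to 18.4), by Btz/eIF4AIII at 3 of 74 (4.05%, 0.844 to 11.4) and by Y14/eIF4AIII at 46 of 356 (12.9%, 9.62 to 16.9). The middle base lay in an eIF4AIII/Y14 peak at 4 of 156 gaps (2.56%, 0.703 to 6.43), in a Btz/eIF4AIII peak at 1 of 74 (1.35%, 0.0342 to 7.30) and in a Y14/eIF4AIII peak at 9 of 356 (2.53%, 1.16 to 4.74). For gaps of 1 other list only, these shares were 7.18%, 16.98% and 5.66%. At the 56 gaps that the left-out list held itself no base inside could be covered, which lowers its shares at the shared gaps. All gaps with a covered base were thus among the 100, 18 and 300 that eIF4AIII/Y14, Btz/eIF4AIII and Y14/eIF4AIII did not hold. The lists and the backgrounds are therefore not ranked by these shares. A peak ran across the whole gap at 1 of 156 gaps in eIF4AIII/Y14, 0 of 74 in Btz/eIF4AIII and 1 of 356 in Y14/eIF4AIII. A peak wholly inside was found at 8, 1 and 9 gaps, and a peak on the opposite strand at 1, 0 and 1.

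The peaks that bordered the gaps differed in width between the sides, most in eIF4AIII/Y14. The rule used the borders of these peaks and neither their far ends nor their depth. In eIF4AIII/Y14 the upstream peaks had a median width of 43 nt (quartiles 33.25 and 57.75, range 3 to 228 nt) and the downstream peaks one of 12 nt (6 and 33, range 1 to 224 nt). The upstream peak was the wider at 303 of 374 gaps (81.0%, 76.7 to 84.9), against 46.0% of all gaps of this length in that list. Downstream peaks under 10 nt bordered 148 of the 374 gaps (39.6%, 34.6 to 44.7), against 3.12% of all gaps, and upstream peaks under 10 nt bordered 8 (2.14%), against 5.46%. The downstream peak was the wider at 69 (18.4%), against 51.1% of all gaps.

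In Btz/eIF4AIII the median widths were 54 nt upstream (35.75 and 89, range 1 to 969 nt) and 39 nt downstream (20 and 83, range 1 to 1451 nt). The upstream peak was wider at 295 of 456 gaps (64.7%, 60.1 to 69.1), against 48.1% of all gaps, and the downstream peak at 157 (34.4%), against 50.4%. Of the downstream peaks 58 (12.7%) were under 10 nt, against 2.60% of all gaps, and of the upstream peaks 8 (1.75%), against 4.05%. In Y14/eIF4AIII they were 39.5 nt upstream (27 and 63, range 2 to 312 nt) and 28.5 nt downstream (13 and 56, range 1 to 750 nt). Upstream was the wider side at 104 of 174 gaps (59.8%, 52.1 to 67.1), against 49.5% of all gaps, and the downstream peak at 69 (39.7%), against 49.1%. Of the downstream peaks 31 (17.8%) were under 10 nt, against 2.37%, and of the upstream peaks 21 (12.1%), against 2.96%, so narrow peaks stood on both sides here. Gaps not shared had medians of 32 and 33 nt, 55 and 57 nt, and 52 and 52 nt upstream and downstream in the 3 lists. The narrow side of a shared gap was therefore the downstream one in each list, with overlap of the quartiles in Btz/eIF4AIII and Y14/eIF4AIII. The far ends of the flanking peaks were rarely common: between eIF4AIII/Y14 and Btz/eIF4AIII the far end was identical at 34 of 356 upstream peaks and 22 downstream, between eIF4AIII/Y14 and Y14/eIF4AIII at 7 and 5 of 74, and between Btz/eIF4AIII and Y14/eIF4AIII at 17 and 12 of 156.

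**Figure D3:**
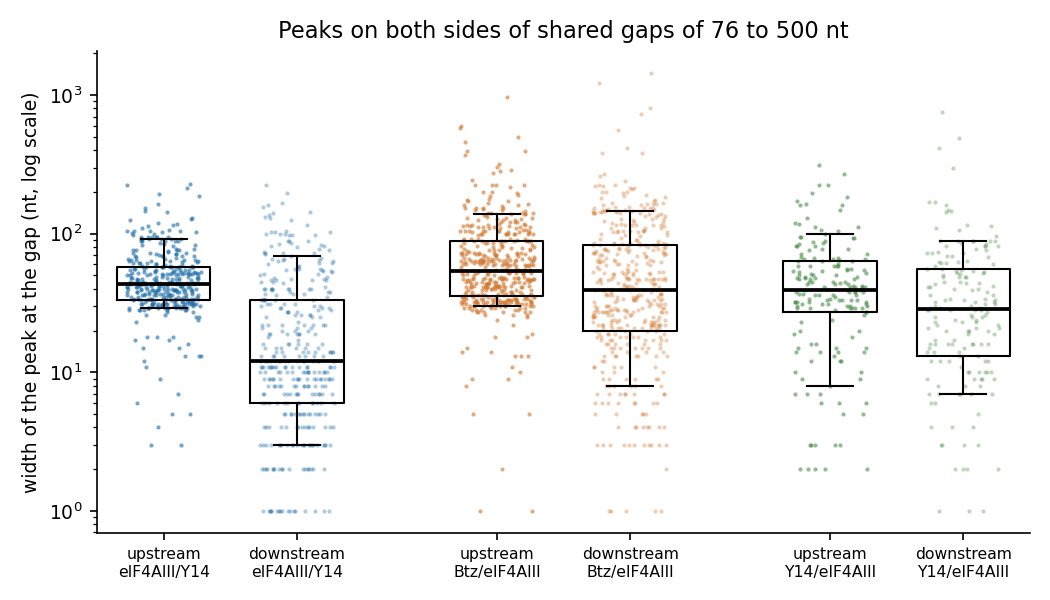
Width in nt (vertical axis, log scale) of the peaks upstream and downstream of shared gaps of 76 to 500 nt in each list; points are gaps, boxes run from the lower to the upper quartile with the median as a line, and whiskers span the 10th to the 90th percentile. The eIF4AIII/Y14 downstream peaks, with a median of 12 nt, are the narrowest of the 6 sets.

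Depth on the upstream and downstream sides was set apart in eIF4AIII/Y14 and close in the other lists. In eIF4AIII/Y14 the median depth was 128 reads per base upstream (quartiles 52.0 and 311) and 37.25 downstream (14.7 and 82.6). The upstream peak was the deeper at 288 of 374 gaps (77.0%, 72.4 to 81.2), against 48.4% of all gaps of this length in that list, and at least 2 times as deep at 215 (57.5%), against 34.1%. Its downstream peak was the deeper at 54 (14.4%), against 50.4%, and at least 2 times as deep at 30 (8.02%), against 36.6%. The median ratio of upstream to downstream depth was 1.44 on the log2 scale.

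In Btz/eIF4AIII the medians were 255 upstream (47.4 and 562) and 198 downstream (42.9 and 495), with a median log2 ratio of 0.06. The upstream peak was deeper at 259 of 456 gaps (56.8%, 52.1 to 61.4), against 49.3% of all gaps, and the downstream peak at 164 (36.0%), against 48.5%. A difference of at least 2 times was found at 108 gaps upstream (23.7%) and 73 downstream (16.0%), against 35.0% and 35.5% of all gaps. In Y14/eIF4AIII the medians were 132 upstream (23.7 and 726) and 139.5 downstream (24 and 754), with a median log2 ratio of 0.00. Of the 2 sides, the upstream one was deeper at 70 of 174 gaps (40.2%, 32.9 to 47.9) and the downstream peak at 59, against 49.7% and 47.3% of all gaps. A difference of at least 2 times was found at 24 upstream (13.8%) and 22 downstream (12.6%), against 38.5% and 36.6%. What set these lists apart from all gaps was how near the 2 depths were. They were less than 2 times apart at 275 of the 456 Btz/eIF4AIII gaps (60.3%, 55.7 to 64.8), against 29.4% of all gaps, and at 128 of the 174 Y14/eIF4AIII gaps (73.6%, 66.4 to 79.9), against 24.9%. In eIF4AIII/Y14 they were so at 129 of 374 (34.5%, 29.7 to 39.6), against 29.3%.

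**Figure D4:**
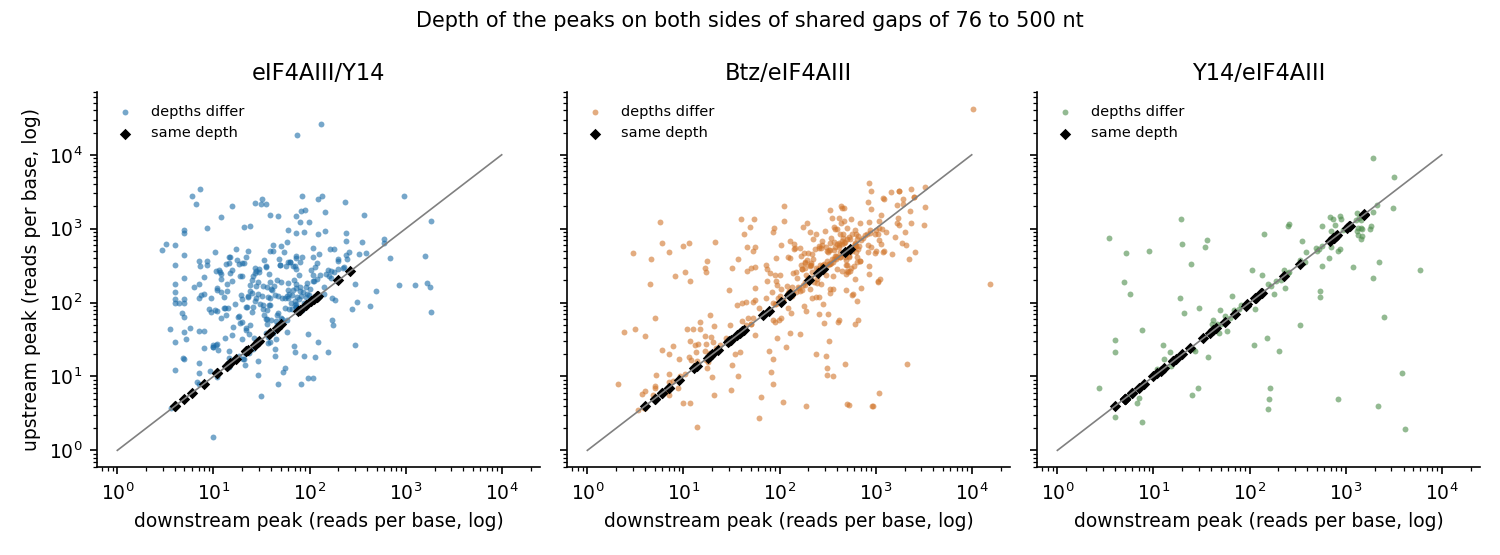
Depth in reads per base of the upstream peak (vertical axis) and the downstream peak (horizontal axis) of each shared gap of 76 to 500 nt, both on log scales, in 1 panel per list; black diamonds mark gaps with the same depth on both sides, and the line marks equal depth. In eIF4AIII/Y14 288 of 374 gaps lie above the line, while in Y14/eIF4AIII 128 of 174 lie within 2 times of it.

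The same comparison was made for peaks of the list that had no part in choosing the gap, using the nearest peak within 50 nt on each side. eIF4AIII/Y14 had separate peaks on both sides of 86 of 156 gaps, and the upstream one was deeper at 59 (68.6%, 57.7 to 78.2) and the downstream one at 25. At gaps of 1 other list only it was deeper upstream at 52.0% of 2966. Of the 86, the 30 at gaps that eIF4AIII/Y14 did not itself hold had 17 deeper upstream and 12 deeper downstream (56.7% upstream, 37.4 to 74.5). At the 56 gaps of all 3 lists, its upstream peak was deeper at 42 (75%, 61.6 to 85.6). Btz/eIF4AIII peaks were less than 2 times apart in depth at 31 of 61 gaps (50.8%, 37.7 to 63.9), against 31.8% beside gaps of 1 other list. Y14/eIF4AIII peaks were so at 50 of 84 (59.5%, 48.2 to 70.1), against 28.5%. At the gaps that the left-out list did not hold, these counts were 2 of 5 and 6 of 28.

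Read gap by gap, the lists often differed in which side was deeper. At the 356 gaps common to eIF4AIII/Y14 and Btz/eIF4AIII, the upstream peak was deeper in both at 164 and the downstream peak in both at 16. It was upstream in eIF4AIII/Y14 and downstream in Btz/eIF4AIII at 99, and the other way round at 29. At the other 48 a list had the same depth on both sides. Of the 56 gaps in all 3 lists, the upstream peak was deeper in every list at 14, the downstream peak in every list at 3, the sides were mixed at 26, and 13 had the same depth on both sides in at least 1 list.

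Many shared gaps had exactly the same depth on both sides, as deposited and with no tolerance. This was so at 32 of 374 gaps in eIF4AIII/Y14 (8.56%, 5.93 to 11.9), 33 of 456 in Btz/eIF4AIII (7.24%, 5.03 to 10.0) and 45 of 174 in Y14/eIF4AIII (25.9%, 19.5 to 33.0), against 1.22%, 2.24% and 3.00% of all gaps of this length in those lists. The shared depth was a whole number at every one of these gaps and ran from 4 to 265 reads per base in eIF4AIII/Y14, to 535 in Btz/eIF4AIII and to 1569 in Y14/eIF4AIII. The widths of the 2 peaks, added, had a sharp upper bound. They reached 40 nt in eIF4AIII/Y14, where 8 of the 32 gaps stood at exactly 40 nt, and 76 nt in both Btz/eIF4AIII and Y14/eIF4AIII, where 2 gaps each stood at it. The medians of the sum were 33 nt in eIF4AIII/Y14, 52 nt in Btz/eIF4AIII and 48 nt in Y14/eIF4AIII, against 64, 112 and 85 nt at shared gaps with unequal depths, which reached 337, 1948 and 912 nt. Among gaps that were not shared the bound was less strict: of those with equal depths, 104 of 136 in eIF4AIII/Y14 summed to 40 nt or less, and 253 of 272 in Btz/eIF4AIII and 77 of 84 in Y14/eIF4AIII to 76 nt or less. The upstream piece was the larger, with median widths for eIF4AIII/Y14 of 28 nt upstream and 6.5 nt downstream. Btz/eIF4AIII had 35 and 19 nt, Y14/eIF4AIII 29 and 19 nt.

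Of the gaps in all 3 lists, the 10 whose least deep flank was deepest show these patterns one by one, with depths in reads per base and the upstream value first. On 2L at 156553 to 156735, plus strand, a gap of 183 nt had flanks at 2745 reads upstream and 966 downstream for eIF4AIII/Y14. Btz/eIF4AIII had 1870 upstream and 896 downstream there, Y14/eIF4AIII 553 upstream and 489.6 downstream. The upstream peak was deeper in every list, and the downstream peak was 14 nt wide in both eIF4AIII/Y14 and Y14/eIF4AIII and 116 nt in Btz/eIF4AIII. On 2L at 1174267 to 1174496, plus strand, a gap of 230 nt had 181 and 295 reads for eIF4AIII/Y14. Btz/eIF4AIII had 368 upstream and 690 downstream there, and Y14/eIF4AIII 1569 on both sides, where its peaks were 54 and 12 nt wide. Here the downstream side was the deeper in the first 2 lists.

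On 3L at 2611711 to 2611787, minus strand, a gap of 77 nt had 163 reads upstream and 1782 downstream for eIF4AIII/Y14. Btz/eIF4AIII had 3697 upstream and 3235 downstream there, Y14/eIF4AIII 494 upstream and 839 downstream. The downstream peak of this gap was 72 nt wide in all 3 lists, so its far end was common to all of them as well. On 2R at 19820012 to 19820096, minus strand, a gap of 85 nt had 274 and 157 reads for eIF4AIII/Y14. Btz/eIF4AIII had 628 upstream and 398 downstream there, Y14/eIF4AIII 215 upstream and 1931 downstream. The upstream peak of this gap was 18 nt wide in all 3 lists.

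On 3R at 9491624 to 9491805, plus strand, a gap of 182 nt had 162 and 141 reads for eIF4AIII/Y14. Btz/eIF4AIII had 2292 upstream and 825 downstream there, Y14/eIF4AIII 205 upstream and 214 downstream. The sides were near each other in eIF4AIII/Y14 and Y14/eIF4AIII and far apart in Btz/eIF4AIII. On 3L at 998732 to 998823, minus strand, a gap of 92 nt had 2758 and 83.0 reads for eIF4AIII/Y14. Btz/eIF4AIII had 2024 upstream and 441 downstream there, Y14/eIF4AIII 490 upstream and 389 downstream. At both gaps eIF4AIII/Y14 and Btz/eIF4AIII were deeper upstream.

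On 3R at 20147506 to 20147584, plus strand, a gap of 79 nt had 392 and 48.2 reads for eIF4AIII/Y14. Btz/eIF4AIII had 1113 upstream and 3208 downstream there, Y14/eIF4AIII 346.5 upstream and 333 downstream. The downstream side was the deeper in Btz/eIF4AIII alone. On X at 13159070 to 13159162, minus strand, a gap of 93 nt had 50.2 and 46.3 reads for eIF4AIII/Y14. Btz/eIF4AIII had 845 upstream and 561 downstream there, Y14/eIF4AIII 79.7 upstream and 69.2 downstream. This gap was deeper upstream in every list.

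The remaining 2 of the 10 lay on 2L, plus strand, both in the 10 kb window that begins at 5030001. The gap at 5032375 to 5032499, of 125 nt, had 2764 reads upstream and 134 downstream for eIF4AIII/Y14. Btz/eIF4AIII had 2617 upstream and 1184 downstream there, Y14/eIF4AIII 1627 upstream and 1314 downstream. The gap at 5036209 to 5036476, of 268 nt, had 184 and 60 reads for eIF4AIII/Y14. Btz/eIF4AIII had 979.5 upstream and 396 downstream there, Y14/eIF4AIII 1084 upstream and 254 downstream. Both were deeper upstream in every list.

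A shared gap was at times followed by another with a single peak in between. Such joining peaks numbered 38 beside shared gaps of 76 to 500 nt, and 45 of the 474 gaps (9.49%) stood in a run of this kind. The neighbour was another gap of 76 to 500 nt at 8 of the joining peaks, one of 50 to 75 nt at 23, one longer than 500 nt at 5 and one shorter than 50 nt at 2. The joining peak was seen in Btz/eIF4AIII at 35, in eIF4AIII/Y14 at 12 and in Y14/eIF4AIII at 5, and in 2 or more lists at 14. Its width had a median of 105 nt, with quartiles at 73.5 and 160 nt and a range of 18 to 1451 nt.

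The 36 runs held 2 gaps in 33 cases, 3 in 2 and 4 in 1. The run of 4 included the 2L gap at 5032375. Before it stood a gap of 75 nt at 5031803 to 5031877, shared by eIF4AIII/Y14 and Btz/eIF4AIII, and after it gaps of 62 nt at 5033951 to 5034012 and 82 nt at 5034982 to 5035063, both shared by Btz/eIF4AIII and Y14/eIF4AIII. Btz/eIF4AIII covered the 3 stretches between them with unbroken peaks of 497, 1451 and 969 nt, at 2617, 1184 and 835 reads per base. In eIF4AIII/Y14 these stretches held several shorter peaks, and the 42 nt peak just upstream of the 125 nt gap, at 2764 reads, was by far the deepest of them. A run of 3 on X, minus strand, joined gaps of 65 nt (2045645 to 2045709), 60 nt (2045496 to 2045555) and 119 nt (2045186 to 2045304), with joining peaks of 89 nt in eIF4AIII/Y14 and Btz/eIF4AIII and of 191 nt in Btz/eIF4AIII. A run of 3 on 3R, plus strand, joined gaps of 65 nt (21871386 to 21871450), 708 nt (21871550 to 21872257) and 140 nt (21872315 to 21872454), with joining peaks of 99 nt in Btz/eIF4AIII and of 57 nt in both eIF4AIII/Y14 and Btz/eIF4AIII. Only 1 gap of each of the runs on X and 3R, the last in each case, is of 76 to 500 nt.

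**Figure D5:**
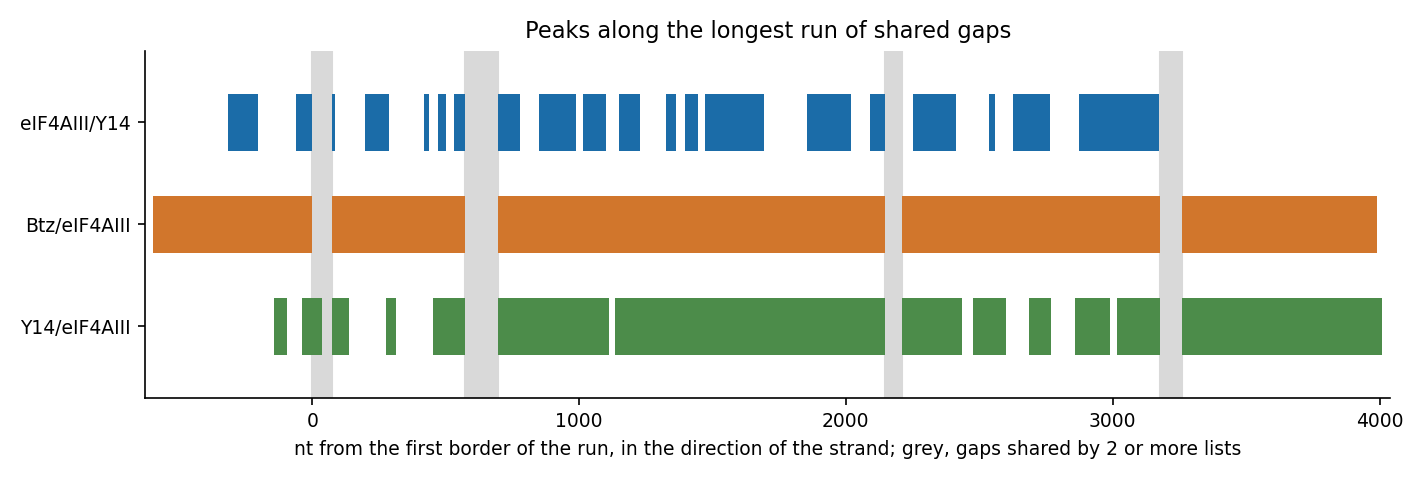
Peaks of the 3 lists (1 row each) along the run of 4 shared gaps on 2L, with the distance in nt from its first border on the horizontal axis and the shared gaps in grey. Btz/eIF4AIII fills the stretches between gaps with peaks of 497, 1451 and 969 nt, where eIF4AIII/Y14 and Y14/eIF4AIII are mostly broken into shorter peaks.

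Gaps in exactly 2 lists are represented by the 3 per pair with the deepest least deep flank. For eIF4AIII/Y14 and Btz/eIF4AIII, the gap on 3R at 23749463 to 23749638, plus strand, had flanks at 643 and 591 reads for eIF4AIII/Y14, while Btz/eIF4AIII had 4125 and 859. The gap on chromosome 4 at 473517 to 473597, plus strand, had 481 and 259 reads in eIF4AIII/Y14, the downstream peak being 3 nt wide, and 412 and 647 in Btz/eIF4AIII. The gap on 3R at 12292108 to 12292184, minus strand, had 307 and 228 reads in eIF4AIII/Y14, again with a downstream peak of 3 nt, and 455 and 454.96 in Btz/eIF4AIII, which is near to equal but not the same. Y14/eIF4AIII covered neither 22 nt base at the last 2 of these gaps and only the downstream base at the first.

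For Btz/eIF4AIII and Y14/eIF4AIII, the gap on 3R at 16584613 to 16584703, minus strand, had 2687 and 2498 reads for Btz/eIF4AIII, while Y14/eIF4AIII had 2120 and 2105. The gap on 2R at 580674 to 580752, minus strand, had 1211 and 2309 reads for Btz/eIF4AIII, while Y14/eIF4AIII had 994 and 1485. The gap on 3L at 11171632 to 11171747, minus strand, had 979 and 1153 reads for Btz/eIF4AIII, while Y14/eIF4AIII had 729 and 728. At all 3 of these gaps eIF4AIII/Y14 covered the upstream base and not the downstream one.

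For eIF4AIII/Y14 and Y14/eIF4AIII, the gap on 3L at 20505486 to 20505620, plus strand, had 244 and 148 reads in eIF4AIII/Y14 and 785 on both sides in Y14/eIF4AIII. The gap on 2R at 11772994 to 11773089, minus strand, had 2502 and 123 reads for eIF4AIII/Y14, while Y14/eIF4AIII had 122 and 118. The gap on 3R at 1406028 to 1406103, minus strand, had 280 and 103 reads for eIF4AIII/Y14, while Y14/eIF4AIII had 1549 and 1581. Btz/eIF4AIII covered only the downstream base at the first and only the upstream base at the other two. At each of these 3 gaps eIF4AIII/Y14 was deeper upstream, and in Y14/eIF4AIII the sides were equal or close.

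Among the deepest peaks of the lists, some bordered a shared gap of this length. The eIF4AIII/Y14 peak of rank 2, at 25725 reads per base, stood upstream of the 81 nt gap on U at 5771600 to 5771680, minus strand, whose downstream peak had 133 reads, while Btz/eIF4AIII had 70.9 and 256. The Btz/eIF4AIII peak of rank 3, at 41580 reads, stood upstream of the 98 nt gap on the plus strand of X at 3679529 to 3679626, whose downstream peak had 10333. There Y14/eIF4AIII had 4982 and 3160 reads, and eIF4AIII/Y14 had 18.2 upstream and 115 downstream. In Y14/eIF4AIII the deepest flank, of rank 14 at 8993 reads, stood upstream of the 164 nt gap on 2R at 4983339 to 4983502, plus strand, with 1934 reads downstream, and Btz/eIF4AIII had 923 and 298. In each case the deepest flank was the upstream one, but at the gap on U Btz/eIF4AIII was deeper downstream, and at the gap on X eIF4AIII/Y14 was.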

How the data were processed

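Peaks came from 3 libraries of S2 cells, 1 per tandem purification, and samples were grouped by the purification named in their labels. For each library the authors deposited a peak list with strands and a signal value per peak that multiplied by the width is a whole number (tolerance 0.001) for 100% of peaks, as a mean read coverage per base would be. The words clipped and merged stand in the track names, per the file headers, and the track name of the eIF4AIII/Y14 list gives Y14 alone. Per the submitters' processing notes, Bowtie and SAMtools were used, without versions. The sources used here do not give the peak caller, its threshold or the build.

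Gaps, borders, coverage and depth were computed with Python 3.11.15, NumPy 2.4.6 and SciPy 1.17.1, and drawn with matplotlib 3.10.9; the functions were tested on simulated data. Upstream and downstream follow the strand column. A list's coverage was measured beside gaps shared by the other 2 lists, whether or not it held the gap itself. Intron lengths came from Ensembl release 115. The limits of 76 and 500 nt, the 22 nt offset and the measures were chosen with earlier results of these data known, and the bounds of 40 and 76 nt after the values were seen. Gaps named are the 10 in all 3 lists and the 3 per pair of lists with the deepest least deep flank, the 3 longest runs and the deepest flank per list, the last chosen afterwards. No p-values were computed.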

Additional observations from a re-analysis of the deposited data

How the results depend on the processing

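Of 79 recomputed values, 57 stayed within the 95% interval of the reported value, or within 1.5 times a count, and 22 did not. The upstream share of the left-out list exceeded the downstream share in 23 of 24 recomputed pairs. The 474 gaps became 145 when only peaks at or above the median depth of their list were used, 273 without peaks under 10 nt, and 56 when all 3 lists had to hold the gap. With the deeper peaks alone, upstream coverage was 67.6% for eIF4AIII/Y14, 64.7% for Btz/eIF4AIII (17 gaps) and 24.4% for Y14/eIF4AIII, downstream coverage was 19.1% for eIF4AIII/Y14, and the upstream peak was deeper at 83.7% of eIF4AIII/Y14 gaps. Without peaks under 10 nt, eIF4AIII/Y14 covered 37.3% downstream, and Y14/eIF4AIII 38.9% upstream and 26.4% downstream. At the base next to the border, eIF4AIII/Y14 covered 49.4% upstream and 47.4% downstream, and Btz/eIF4AIII covered 79.7% on both sides, the 1 pair with no excess upstream, and Y14/eIF4AIII 25.0% downstream. The 56 gaps that the left-out list held itself are covered there by definition. With any base within 50 nt, eIF4AIII/Y14 covered 60.9% downstream, Btz/eIF4AIII 85.1% downstream, and Y14/eIF4AIII 36.5% upstream and 30.3% downstream. With depth multiplied by width, the upstream peak was the larger at 86.9%, 69.1% and 60.3% of the eIF4AIII/Y14, Btz/eIF4AIII and Y14/eIF4AIII gaps. The depth and width limits use fewer peaks by construction, and the other distances count other bases. Multiplying by width keeps the same gaps and peaks and changes the quantity compared. Borders within 2 nt, other length limits and the main arms alone moved no value beyond its error. No paired analysis was possible because each purification had 1 library. Depth limits what the lists hold, since fragments too rare for the peak caller are missing from them.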
